A study of Mus musculus with 6 samples.

Results

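The genes described here are the nuclear genes whose symbol begins with Nduf, which encode the accessory and nuclear core subunits of respiratory complex I and many of the factors that assemble it. They were chosen by symbol: the gene identifiers were matched to GENCODE M21, and every protein-coding gene with an Nduf symbol was taken, which gave 46 of 55536 identifiers. By their known roles, 36 are structural subunits, 8 are assembly factors (Ndufaf1 to Ndufaf8), and 2 (Ndufa4 and Ndufa4l2) are no longer counted as complex I subunits. All 46 had enough reads to be tested. Expression was measured by RNA sequencing in whole livers of CREBH-KO mice and of wild-type (WT) mice, with 3 libraries per genotype, and all animals had been fasted for 14 h. CREBH, encoded by Creb3l3, is a liver transcription factor made in the endoplasmic reticulum membrane and cut free to enter the nucleus, and the comparison asks how liver gene expression under fasting differs without it. The sources used here give neither the sex or age of the mice nor the extent of the deletion and whether it reaches beyond the liver.

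Complex I (NADH:ubiquinone oxidoreductase) is the main entry point of electrons into the mitochondrial respiratory chain. Its matrix arm oxidises NADH in the N module and passes the electrons over iron-sulfur clusters to ubiquinone in the Q module, and its membrane arm, built around the ND1, ND2, ND4 and ND5 proteins encoded by mitochondrial DNA, pumps protons. Hepatocytes rely on it during fasting, when fatty acid oxidation supplies much of their NADH.

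Reads counted in genes numbered 28106243 to 34146918 in the CREBH-KO libraries and 31679996 to 39288819 in the WT libraries. Creb3l3 itself had 57.4, 45.0 and 46.4 CPM (normalised counts, as a share of the library and scaled with TMM factors) in CREBH-KO livers, against 467, 496 and 495 CPM in WT livers, a log2 fold change of -3.29 ± 0.11 (SE; adjusted p = 3.0e-06 by edgeR's quasi-likelihood test with Benjamini-Hochberg adjustment), which goes with the genotype labels. For CREBH-KO 2 and CREBH-KO 3 the labels report the loss of a read 1 file. The hepatocyte marker Alb stood at 52560 to 57680 CPM in CREBH-KO livers and 43460 to 56610 CPM in WT livers. Of the 6 hepatocyte markers Apob fell (log2 fold change -0.36), where 6.46% of all genes fell, while 4 estimates were positive. Tat (0.33) and Serpina1c (0.26) were higher in every CREBH-KO library without passing the test. Being higher in every CREBH-KO library held for 15.0% of all genes. The 6 markers together, mostly Alb, summed to 68210 to 73250 CPM in CREBH-KO livers and 58790 to 72260 CPM in WT livers. Of 6 stellate cell markers, Dcn and Rgs5 rose, where 3.91% of all genes rose. The summed level of all 6 was 275 to 310 CPM in CREBH-KO livers and 219 to 258 CPM in WT livers. Of 5 cholangiocyte markers Sox9 rose (log2 fold change 0.96), beside the same 3.91% of all genes, while 3 of the 5 estimates were negative. The largest of these was that of Epcam (-1.11), at 6.19 CPM in CREBH-KO livers and 13.45 CPM in WT livers, which did not pass. The summed level of the 5 was 41.7 to 69.3 CPM in CREBH-KO livers and 35.8 to 78.9 CPM in WT livers. None of the markers tested for Kupffer cells (6 of 6 listed), sinusoidal endothelial cells (6 of 6), T and B cells (3 of 5), neutrophils (1 of 4) and erythroid cells (4 of 4) passed. Among them, Lyve1 (22.1 CPM in CREBH-KO livers and 9.41 CPM in WT livers), Stab2 (34.2 and 40.7 CPM, CREBH-KO and WT) and Vsig4 (3.45 and 5.99 CPM, CREBH-KO and WT) had no overlap between the genotypes, which held for 30.6% of all genes tested. The adipocyte markers summed to at most 0.135 CPM in CREBH-KO livers and at most 0.130 CPM in WT livers. The part of these marker differences in the results below was not tested.

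Most of the complex I genes had similar levels in both genotypes. At an adjusted p under 0.05, 2 of the 46 Nduf genes changed (4.35%), against 10.4% of the 15589 genes tested in the same fit. Ndufab1 rose, 1 of 46 where 3.91% of all genes rose, and Ndufa10 fell, 1 of 46 where 6.46% of all genes fell. At an unadjusted p under 0.05 the count was 9 of 46 (19.6%), against 25.2% of all genes. The median log2 fold change was -0.026 over the 46 genes and 0.025 over all tested genes, with 28 of the 46 negative and 18 positive. The sign of that small median depended on the scaling, since it was 0.049 with library sizes alone and 0.010 with upper-quartile factors.

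For 41 of the 46 genes (89.1%) the 95% interval of the fold change lay within 1.5-fold in either direction, which held for 44.1% of all tested genes. The 41 include Ndufab1, which changed, and the other 5 were Ndufa10, Ndufb2, Ndufaf5, Ndufaf6 and Ndufa4l2. Genes with few reads have wide intervals, and the part of read depth in the contrast of these 2 shares was not tested. The estimate itself was under 0.2 in size on the log2 scale for 36 genes, and the largest was 0.543. The median standard error was 0.083, at a median of 2057 reads per gene and library. In 15 genes (32.6%) the libraries of the 2 genotypes did not overlap, against 30.6% of all genes. Of these, 11 (23.9%) lay below all WT libraries in all 3 CREBH-KO libraries, against 15.7% of all genes, and 4 (8.70%) lay above them, against 15.0% of all genes.

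**Figure D1:**
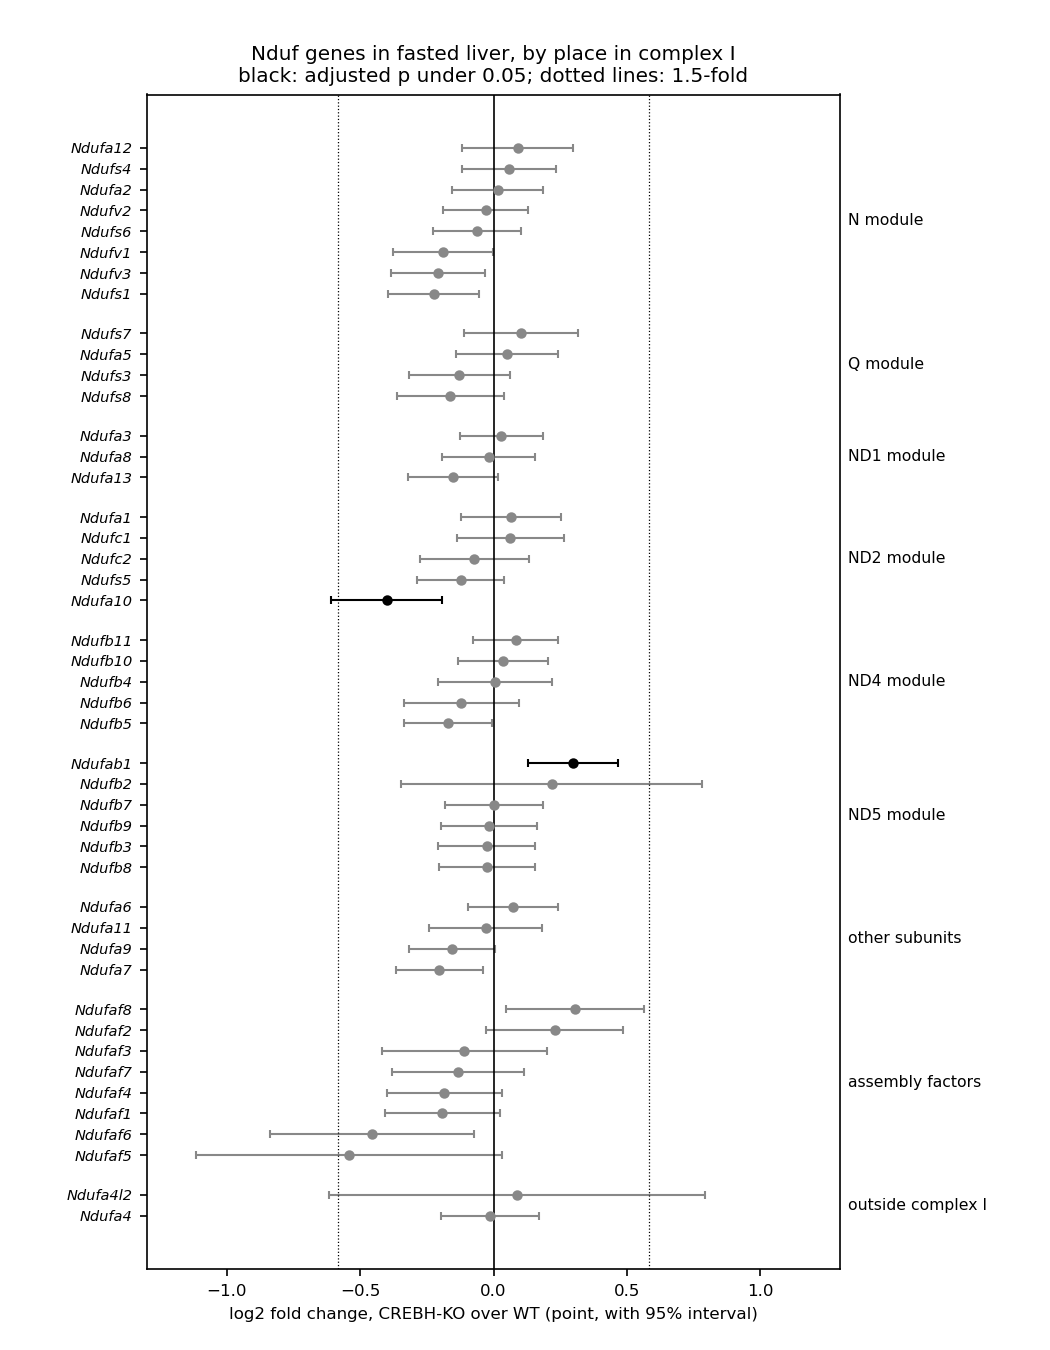
Log2 fold change of CREBH-KO over WT for the Nduf genes reported here, grouped by their place in complex I, with 95% intervals (n = 3 libraries each). Black points are the 2 genes that passed the test, Ndufa10 at -0.40 and Ndufab1 at 0.30, and the dotted lines mark 1.5-fold.

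Ndufa10 was the subunit that fell. It is an accessory subunit of the ND2 module of the membrane arm, with a fold related to nucleoside kinases, and its gene (ENSMUSG00000026260) lies on the minus strand of chromosome 1 at 92439010 to 92473860 (GRCm38). Its normalised count was 128, 103 and 119.9 CPM in CREBH-KO livers, against 154, 159 and 150.1 CPM in WT livers. Every CREBH-KO library was below every WT library, with CREBH-KO 2 the lowest. The log2 fold change was -0.40 ± 0.093 (SE, n = 3 each), with a 95% interval of -0.61 to -0.19 and an adjusted p of 0.0275 by edgeR's quasi-likelihood test, a level at 75.7% of WT. In whole liver, fewer cells of a type and less RNA per cell cannot be told apart. Set against its own complex, Ndufa10 took 4.08%, 3.51% and 4.03% of the reads of the 36 subunits in CREBH-KO livers, against 5.03%, 5.07% and 4.69% in WT livers. No other annotated gene overlaps its exons, and none of the 50-base windows of its exons occurs in the exons of another gene. The call did not pass without CREBH-KO 2 (adjusted p = 0.0773), CREBH-KO 3 (0.0795), WT 2 (0.108) or WT 3 (0.0524), by the same edgeR test. The log2 fold change stayed between -0.47 and -0.32 over the 6 fits that left out a library.

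Ndufab1 was the subunit that rose. It is the mitochondrial acyl carrier protein, which is held in complex I and also carries the growing chain in mitochondrial fatty acid synthesis, the route to lipoic acid. Its normalised count was 50.5, 50.9 and 50.7 CPM in CREBH-KO livers, against 43.2, 41.1 and 39.2 CPM in WT livers. The CREBH-KO libraries had an SD of 0.182 CPM and all lay above the WT libraries. The log2 fold change was 0.30 ± 0.075 (SE, n = 3 each), with a 95% interval of 0.13 to 0.47 and an adjusted p of 0.0359 by edgeR's quasi-likelihood test, a level at 123% of WT. Its share of the subunit reads was 1.61%, 1.74% and 1.70% in CREBH-KO livers, against 1.41%, 1.31% and 1.23% in WT livers. The gene (ENSMUSG00000030869, minus strand of chromosome 7, 122085403 to 122101886, GRCm38) shares sequence with others: 26.3% of its 468 coding bases lie under an annotated gene on the other strand, Gm44986, and 7.13% of its 50-base exon windows occur in other genes. Whether the counting used strand is not stated in those sources, so reads of the 2 strands cannot be told apart. The processed pseudogene Ndufab1-ps had 1.39 ± 0.26 CPM in CREBH-KO livers and 1.06 ± 0.37 CPM in WT livers (SD, n = 3 each). The call did not pass without CREBH-KO 1 (adjusted p = 0.0815), CREBH-KO 2 (0.0999), CREBH-KO 3 (0.109), WT 2 (0.127) or WT 3 (0.116), nor with no filter on low counts (0.0957), by the same edgeR test. The log2 fold change stayed between 0.26 and 0.32 in the fits that left out a library.

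**Figure D2:**
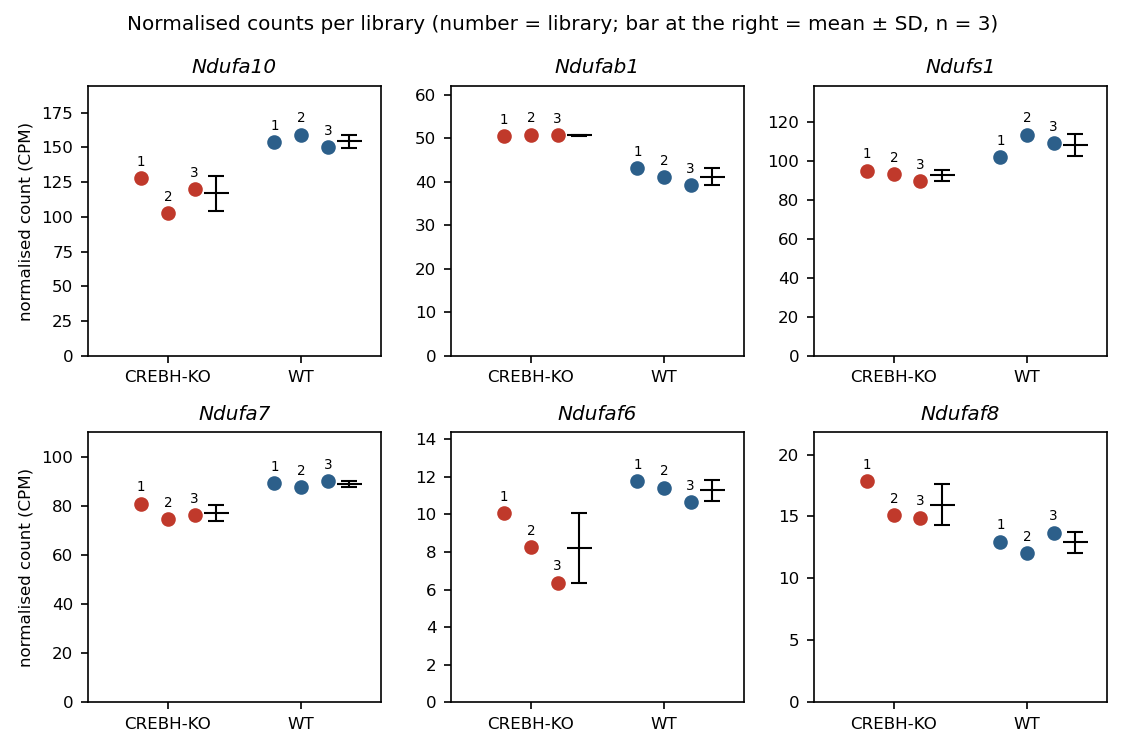
Normalised counts (CPM, axis from 0) in each library of the 2 genes that passed the test, Ndufa10 and Ndufab1, and of the 4 genes next by p-value, Ndufs1, Ndufa7, Ndufaf6 and Ndufaf8, with the mean ± SD of each genotype (n = 3). The CREBH-KO and WT libraries do not overlap in these 6 genes, which were picked by p-value. Over all genes tested, 30.6% do not overlap.

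The sequences upstream of the 2 genes that changed are shown because CREBH belongs to the CREB family of factors, for which the palindrome TGACGTCA is the classical cyclic AMP response element. The windows are the 250 bases before the RefSeq start of each gene (GRCm38.p6), written 5′ to 3′ on the strand of the gene, and capitals mark a match to any of the motifs searched. Ndufa10 lies at chr1:92473759-92474008 (minus strand) and Ndufab1 at chr7:122101849-122102098 (minus strand).
Ndufa10: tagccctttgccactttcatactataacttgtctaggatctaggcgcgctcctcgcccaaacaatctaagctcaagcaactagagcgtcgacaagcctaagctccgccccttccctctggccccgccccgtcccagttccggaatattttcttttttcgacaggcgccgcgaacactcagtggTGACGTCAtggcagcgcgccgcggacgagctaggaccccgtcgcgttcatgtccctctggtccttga
Ndufab1: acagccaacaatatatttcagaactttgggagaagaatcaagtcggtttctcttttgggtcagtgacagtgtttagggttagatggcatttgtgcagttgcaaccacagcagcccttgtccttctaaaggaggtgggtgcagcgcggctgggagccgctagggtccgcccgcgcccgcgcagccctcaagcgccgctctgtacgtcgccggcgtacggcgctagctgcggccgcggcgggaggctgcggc
The Ndufa10 window holds TGACGTCA once, 67 to 60 bases before the RefSeq start. The outermost GENCODE start of Ndufa10 is 102 bases further upstream than the RefSeq start, so that by GENCODE the match lies inside the gene. The Ndufab1 window holds no match.

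Of the 46 genes, 40 had an entry in the RefSeq promoter table, with 42 windows in all. The search covered 6 motifs on both strands, none of them contained in another. TGACGTCA was in 7.14% of the Nduf windows and 1.55% of all 32851 windows, and the 3 genes were Ndufa10, Ndufa11 and Ndufb2. Ndufa11 and Ndufb2 did not pass the test. The NRF1 motif CGCANGCG, named for a regulator of respiratory genes, was in 28.6% of the Nduf windows and 6.76% of all windows. For the ETS motif CCGGAAG of GABPA the shares were 11.9% of Nduf windows and 6.91% of all windows, and for AAGGTCA of the estrogen-related receptors they were 7.14% of Nduf windows and 4.08% of all windows. No Nduf window held AAGATGGC of YY1 or TGACGTG, which were in 1.57% and 1.65% of all windows. These matches describe letters in a window and not sites of binding.

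In the N module, which takes up NADH, none of the 8 genes passed the test, and their median log2 fold change was -0.05. Ndufs1, the core subunit with several iron-sulfur clusters, was the gene next to passing: 95.2, 93.4 and 89.6 CPM in CREBH-KO livers, against 102, 114 and 109 CPM in WT livers. All 3 CREBH-KO libraries were below the WT libraries, with a log2 fold change of -0.23 ± 0.076 (SE) and an adjusted p of 0.0975 by edgeR's quasi-likelihood test. Ndufv1, which binds NADH and the flavin, had 175, 177 and 172 CPM in CREBH-KO livers, against 179.6, 205 and 212 CPM in WT livers (log2 fold change -0.19, adjusted p = 0.198, edgeR). Ndufv3, a small accessory subunit beside it, had 72.2, 66.8 and 72.0 CPM in CREBH-KO livers, against 80.8, 77.0 and 85.9 CPM in WT livers (log2 fold change -0.21, adjusted p = 0.133, edgeR). In these 3 of the 8 genes every CREBH-KO library was below the WT libraries, which held for 15.7% of all genes. The core subunit Ndufv2 stood at 109, 104 and 103 CPM in CREBH-KO livers and 111, 106 and 107 CPM in WT livers, with overlapping libraries. Ndufs4, Ndufs6, Ndufa2 and Ndufa12 overlapped too.

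In the Q module, which reduces ubiquinone, none of the 5 genes passed the test and the genotypes overlapped in every gene. Ndufs7, a core subunit at the ubiquinone site, had a log2 fold change of 0.10. It stood at 128, 128 and 122 CPM in CREBH-KO livers and 105, 115 and 132 CPM in WT livers. Ndufs8, which carries iron-sulfur clusters towards that site, had 64.9, 53.4 and 59.1 CPM in CREBH-KO livers and 68.9, 63.9 and 65.7 CPM in WT livers. Ndufs3, a core subunit of the same module, had 118, 99.9 and 112 CPM in CREBH-KO livers and 117, 125 and 119 CPM in WT livers. In both, CREBH-KO 2 was the lowest library, and the log2 fold changes were -0.16 and -0.13 (adjusted p = 0.2997 and 0.385, edgeR). Over the 7 nuclear core subunits of both modules, 6 had a negative estimate and none passed.

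The 19 nuclear genes listed here under the ND1, ND2, ND4 and ND5 modules of the membrane arm held both genes that passed the test. These were Ndufa10, which fell, and Ndufab1, which rose, where 10.4% of all genes changed. Whether the arms of the complex differ was not tested. Each gene was listed under a single module, whether or not its protein also sits elsewhere in the complex. Their module medians were -0.02 for ND1, -0.07 for ND2, 0.01 for ND4 and -0.01 for ND5. Around Ndufa10, the other 4 genes of the ND2 module had log2 fold changes of -0.12 to 0.07 and did not pass, although the genotypes did not overlap in Ndufs5 (-0.12). Ndufa1, a small membrane subunit there, had 68.4, 59.4 and 61.1 CPM in CREBH-KO livers and 60.6, 57.8 and 62.2 CPM in WT livers. In the ND4 module, Ndufb11 was higher in every CREBH-KO library, at 148, 142 and 144 CPM against 132, 139 and 139 CPM in WT livers, but by a log2 fold change of 0.08 (adjusted p = 0.504, edgeR). Ndufb5 of the same module was lower in every CREBH-KO library, at 59.2, 56.2 and 55.2 CPM against 62.1, 65.8 and 64.0 CPM in WT livers (log2 fold change -0.17, adjusted p = 0.184, edgeR). Over all genes tested, every CREBH-KO library was above the WT libraries in 15.0% and below them in 15.7%. In the ND5 module, Ndufb2 had a log2 fold change of 0.22, with a 95% interval of -0.35 to 0.78 and overlapping libraries. The 4 genes besides Ndufab1 and Ndufb2 had log2 fold changes of -0.03 to 0.0033.

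Of the 4 subunits given no module here, Ndufa7 and Ndufa9 were lower in every CREBH-KO library without passing the test. Over all genes tested, 15.7% had every CREBH-KO library below the WT libraries. Ndufa7, an accessory subunit of the matrix arm, had 81.1, 74.7 and 76.3 CPM in CREBH-KO livers, against 89.3, 87.7 and 90.2 CPM in WT livers. Its log2 fold change was -0.20 ± 0.072 (SE; adjusted p = 0.112, edgeR's quasi-likelihood test). Ndufa9, which sits where the arms meet and binds a pyridine nucleotide, had 93.9, 94.6 and 95.6 CPM in CREBH-KO livers, against 102.7, 110.5 and 103 CPM in WT livers (log2 fold change -0.15, adjusted p = 0.220, edgeR).

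The CREBH-KO libraries were not alike over the gene family. Relative to the WT mean, 18 of the 46 genes were lower in CREBH-KO 1, 34 in CREBH-KO 2 and 32 in CREBH-KO 3, and 24, 28 and 21 were lower in WT 1, 2 and 3. CREBH-KO 2 and 3 are the libraries whose labels report a lost read file, and its part in these values was not tested. The summed level of the 36 subunits was 3138, 2926 and 2979 CPM in CREBH-KO livers and 3056, 3142 and 3203 CPM in WT livers, which overlapped. As a share of all counted reads, without scaling factors, they held 0.314%, 0.308% and 0.305% in CREBH-KO livers and 0.301%, 0.304% and 0.311% in WT livers. The averages were thus 3014 ± 110 CPM in CREBH-KO livers and 3133 ± 73.9 CPM in WT livers with TMM factors, but 0.309% ± 0.0047 in CREBH-KO livers and 0.305% ± 0.0053 in WT livers without them (SD, n = 3 each).

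Levels between genes were compared per kilobase of exon. Ndufa4 was highest, at 188 ± 7.96 CPM per kb in CREBH-KO livers and 190.2 ± 12.5 CPM per kb in WT livers (SD, n = 3 each). Among the subunits, Ndufb11 followed at 159 ± 3.55 CPM per kb in CREBH-KO livers and 150.4 ± 4.44 CPM per kb in WT livers, and Ndufa1 at 150.3 ± 11.5 CPM per kb in CREBH-KO livers and 144 ± 5.32 CPM per kb in WT livers. The subunits had a median of 53.8 CPM per kb over all 6 libraries, and the assembly factors, which act during construction and leave the finished enzyme, had a median of 6.67 CPM per kb, with a range of 1.59 to 17.3. The lowest levels were those of Ndufb2, Ndufa4l2 and Ndufaf5. Ndufb2 stood apart from its fellow subunits, at 0.991 ± 0.105 CPM per kb in CREBH-KO livers and 0.849 ± 0.312 CPM per kb in WT livers. In the annotation, 46.0% of its 315 coding bases lie under another gene of the same strand, Gm42420, and 72.7% lie under any other gene, and how far this lowers its count was not tested. The median over the 46 genes was 46.6 CPM per kb of exon, 62.6 per kb of the longest transcript and 68.2 per kb of the principal transcript. Ndufa4 was highest and Ndufb2 lowest by each of these lengths, but the order between them was not fixed: per kb of principal transcript Ndufa6 was second (233), and Ndufb11 (155) and Ndufa1 (147) ranked 6 and 8.

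**Figure D3:**
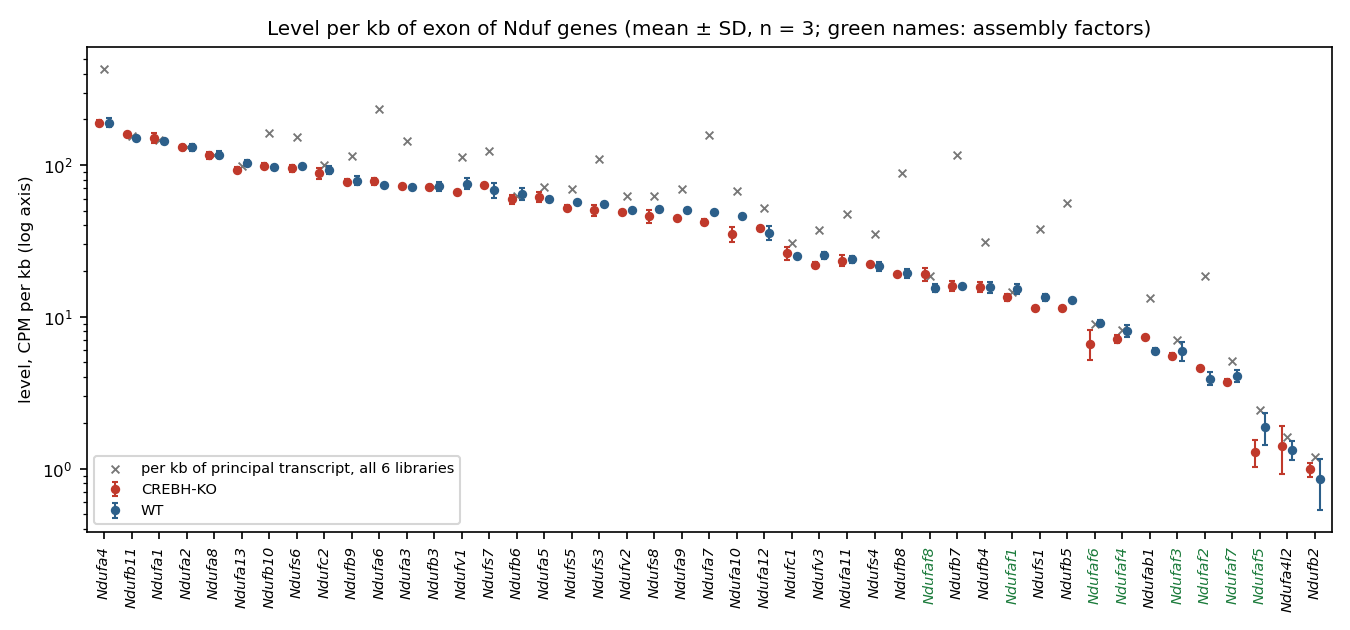
Level per kilobase of exon (CPM per kb, log axis) of the Nduf genes reported here in CREBH-KO and WT livers (mean ± SD, n = 3 each), ordered from high to low, with crosses for the level per kilobase of principal transcript. Names in green are the 8 assembly factors, whose median of 6.67 CPM per kb lies below the subunit median of 53.8.

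None of the 8 Nduf assembly factors passed the test, though their estimates were the widest spread, with 6 negative and 2 positive and a median of -0.16. Ndufaf6, needed early for the ND1 part, had 10.1, 8.25 and 6.37 CPM in CREBH-KO livers, against 11.8, 11.4 and 10.7 CPM in WT livers. Each CREBH-KO library was below the WT libraries and they spread widely, for a log2 fold change of -0.46 ± 0.17 (SE; adjusted p = 0.129, edgeR's quasi-likelihood test). Without CREBH-KO 1 it was -0.63, with an adjusted p of 0.0486 by the same test. Ndufaf5, which hydroxylates Ndufs7, had the largest estimate, -0.54 ± 0.25, but its libraries overlapped, at 2.23, 1.89 and 2.82 CPM in CREBH-KO livers and 4.29, 3.04 and 2.76 CPM in WT livers. Ndufaf8, its partner, had an estimate of the other sign, at 17.9, 15.1 and 14.9 CPM in CREBH-KO livers, against 13.0, 12.1 and 13.7 CPM in WT livers (log2 fold change 0.31, adjusted p = 0.131, edgeR). Ndufaf2, a late-acting chaperone, was also higher in every CREBH-KO library, at 13.5, 14.1 and 13.4 CPM against 12.8, 11.6 and 10.6 CPM in WT livers (log2 fold change 0.23, adjusted p = 0.249, edgeR). The pair Ndufaf3 and Ndufaf4, which work on the Q module, had log2 fold changes of -0.11 and -0.18. In Ndufaf4 every CREBH-KO library was below the WT libraries, the nearest being CREBH-KO 2 at 29.68 CPM and WT 2 at 29.69 CPM. Of the 8 factors, 2 thus had every CREBH-KO library below the WT libraries, against 15.7% of all genes. Another 2 had every one above, against 15.0% of all genes. Ndufaf1, of the membrane assembly complex, had a log2 fold change of -0.19, and Ndufaf7, a methyltransferase, had -0.13.

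Among 11 tested assembly factors without an Nduf symbol, 3 fell and none rose, where 6.46% of all genes fell, and the median log2 fold change was -0.17. In 6 of the 11 every CREBH-KO library was below the WT libraries, which held for 15.7% of all genes. Whether these 11 differ from the 8 Nduf factors was not tested. Acad9, a member of the acyl-CoA dehydrogenase family that assembles the ND2 part together with Ndufaf1 and Ecsit, had 17.1, 17.6 and 17.2 CPM in CREBH-KO livers, against 24.0, 24.9 and 24.3 CPM in WT livers. The genotypes were far apart relative to their spread, with a log2 fold change of -0.50 ± 0.083 (SE; adjusted p = 0.00689, edgeR's quasi-likelihood test). The call passed in all 6 fits that left out a library (highest adjusted p 0.0371, same test). With CREBH-KO 1 alone, which leaves out both libraries with a lost read file, the log2 fold change was -0.54. That fit has no spread among CREBH-KO libraries and cannot decide whether the call holds without them. Nubpl, which delivers iron-sulfur clusters to the subunits, had 7.82, 8.55 and 7.01 CPM in CREBH-KO livers, against 11.2, 13.3 and 11.9 CPM in WT livers. Its log2 fold change was -0.64 ± 0.13 (adjusted p = 0.0179, edgeR), and the call did not pass without CREBH-KO 3 (0.0697) or WT 2 (0.0814). Tmem70, a membrane protein that assembles complex I and the ATP synthase, had 36.0, 32.6 and 33.9 CPM in CREBH-KO livers, against 45.2, 43.7 and 40.8 CPM in WT livers. Its log2 fold change was -0.34 ± 0.082 (adjusted p = 0.0326, edgeR), and the call did not pass with library sizes alone (0.0777) or without CREBH-KO 2 (0.1099), CREBH-KO 3 (0.107), WT 1 (0.0573) or WT 2 (0.1097). The 8 that did not pass had log2 fold changes of -0.56 (Dmac2, adjusted p = 0.0577, edgeR) to 0.28 (Lyrm2, adjusted p = 0.318, edgeR).

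**Figure D4:**
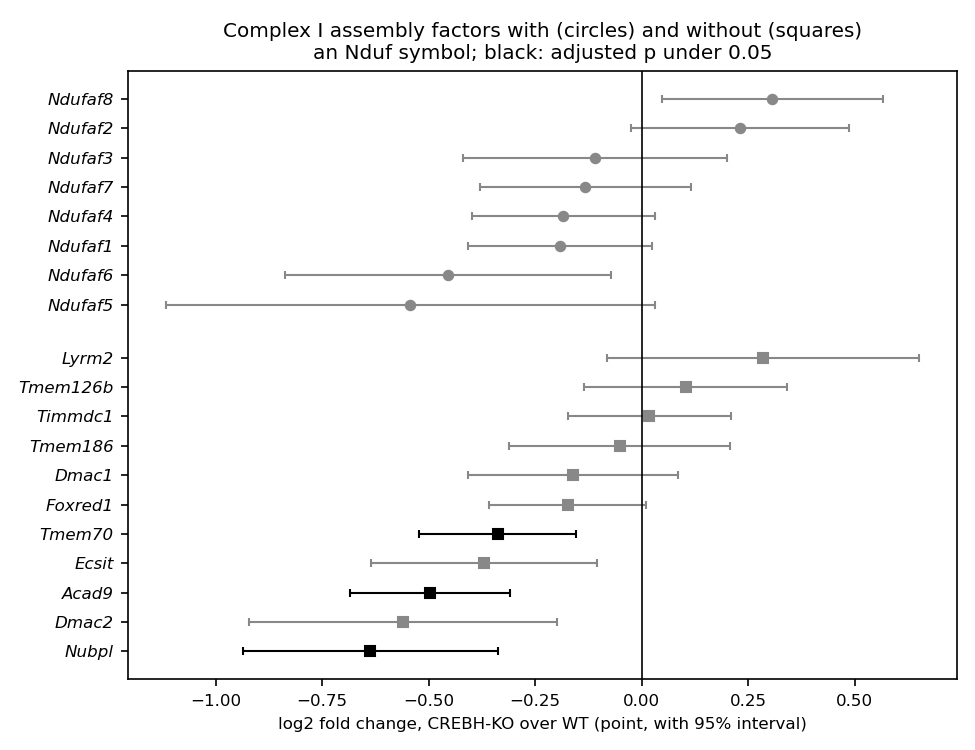
Log2 fold change of CREBH-KO over WT with 95% intervals (n = 3 libraries each) for the 8 assembly factors with an Nduf symbol (circles) and the 11 without (squares). Black symbols passed the test: Tmem70 at -0.34, Acad9 at -0.50 and Nubpl at -0.64.

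The window upstream of Nubpl is shown because it too holds TGACGTCA, as did 1.55% of all windows. It was picked for this match, and matches of the other named genes without an Nduf symbol are not reported here. It lies at chr12:52097496-52097745 (plus strand, GRCm38.p6, RefSeq), and the match is 27 to 20 bases before the RefSeq start, upstream of the GENCODE start as well, which is 9 bases further out.
Nubpl: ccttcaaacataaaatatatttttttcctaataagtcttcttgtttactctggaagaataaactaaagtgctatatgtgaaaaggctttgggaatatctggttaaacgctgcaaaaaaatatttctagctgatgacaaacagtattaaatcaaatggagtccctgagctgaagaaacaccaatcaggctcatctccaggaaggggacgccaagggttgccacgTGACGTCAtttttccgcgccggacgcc
Acad9 and Tmem70 had no entry in the promoter table.

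The 7 complex I subunits encoded by mitochondrial DNA all had negative estimates, with a median log2 fold change of -0.18, and none passed the test. Their summed level was 22098, 16075 and 19128 CPM in CREBH-KO livers and 25373, 20093 and 19019.5 CPM in WT livers, and the libraries overlapped. A list of partner pathways of the Ndufab1 protein held 11 tested genes of mitochondrial fatty acid synthesis, lipoylation and iron-sulfur cluster assembly. Of these 2 fell and none rose, where 6.46% of all genes fell, and 8 estimates were negative and 3 positive. The genes that fell were Mcat, the malonyl transferase that loads the carrier protein, with a log2 fold change of -0.44 (adjusted p = 0.0391, edgeR's quasi-likelihood test), and Oxsm, the condensing enzyme, with -0.35 (0.0376, same test). Neither call passed with library sizes alone (0.0723 for Mcat and 0.0843 for Oxsm) or with upper-quartile factors (0.0586 for both). Without CREBH-KO 2, CREBH-KO 3, WT 2 or WT 3 the adjusted p was 0.0927 to 0.118 for Mcat and 0.0692 to 0.138 for Oxsm.

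Beside the 2 of 46 Nduf genes, 2 of 42 nuclear genes of complexes II to V passed, both lower, where 6.46% of all genes fell, and the median log2 fold change of the 42 was -0.10. Like the Nduf count, this is below the 10.4% of all genes that changed. Sdha, the flavoprotein of complex II, had 440, 409 and 409 CPM in CREBH-KO livers, against 531, 628 and 569 CPM in WT livers (log2 fold change -0.46, adjusted p = 0.0132, edgeR). It did not pass without CREBH-KO 2 (0.0511), CREBH-KO 3 (0.0640) or WT 2 (0.0646). Uqcrc2, a core protein of complex III, had a log2 fold change of -0.26 (adjusted p = 0.0490, edgeR) and passed in none of the 6 fits that left out a library (0.0513 to 0.175), nor with library sizes alone (0.143), upper-quartile factors (0.0815) or no filter on low counts (0.0546). The next counts, 1 of 9 and 1 of 11, stand beside the same 6.46% of all genes. Of 9 genes of supercomplexes and other electron entry routes, Gpd2, the mitochondrial glycerol phosphate dehydrogenase, fell (log2 fold change -0.61, adjusted p = 0.0161, edgeR), though not without CREBH-KO 3 (0.0517) or WT 2 (0.0701). Of 11 regulators of respiratory genes, the deacetylase Sirt3 fell (-0.33, adjusted p = 0.0358, edgeR), though not with library sizes alone (0.0731) or upper-quartile factors (0.0549), and without any library but WT 1 its adjusted p was 0.0501 to 0.124.

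The 2 Nduf genes outside complex I did not differ beyond their spread. Ndufa4, now placed in complex IV, had 272, 249.8 and 259 CPM in CREBH-KO livers and 282, 249.6 and 256 CPM in WT livers. Ndufa4l2, its relative known from hypoxia, was near the lower limit of what was counted, at 2.14, 1.12 and 1.38 CPM in CREBH-KO livers and 1.40, 1.28 and 1.69 CPM in WT livers, and its 95% interval ran from -0.62 to 0.79 on the log2 scale. Another 5 Nduf symbols were left out because they are not annotated as protein-coding. Ndufb1-ps, annotated as a noncoding RNA although RefSeq lists the subunit gene Ndufb1 under it, had 28.8 ± 3.19 CPM in CREBH-KO livers and 32.8 ± 4.15 CPM in WT livers (SD, n = 3 each), a log2 fold change of -0.19 (adjusted p = 0.356, edgeR). The other 4 are processed pseudogenes. Of these Ndufa11b had too few reads to be tested, and the rest did not pass the test.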

How the data were processed

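RNA of whole liver was sequenced in 3 CREBH-KO and 3 WT libraries, grouped by the genotype in the labels and numbered in the order of deposit. The labels speak of independent samples but not of separate animals, so that p-values rest on the spread between libraries, which may be technical. The authors deposited read counts per Ensembl gene, made with HTSeq per the labels. Not given in the sources used here are the aligner, the genome build, the version of HTSeq and its handling of strand. All 55536 identifiers matched GENCODE M21 (GRCm38), which supplied names, positions and lengths. Of the assigned and unassigned reads in the files, 27.4% to 31.2% went to no gene and stayed out of library sizes.

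The low-count filter filterByExpr passed 15589 genes, which hold 99.9% of all counts. It asks for the CPM that 10 counts make in a library of median size, in as many libraries as a genotype has. These libraries may be of either genotype, and at least 15 counts are needed in all. TMM factors ranged over 0.967 to 1.05. CREBH-KO was compared with WT by edgeR 4.0.16's quasi-likelihood test in R 4.3.3 with no covariate. P-values were adjusted by Benjamini-Hochberg over all genes tested, and a gene was called changed at an adjusted p under 0.05. The method was tested on simulated data. Intervals (95%) come from the fit, and levels per kilobase divide CPM by the union of a gene's exons. Promoter sequences come from RefSeq (GRCm38.p6). Alternatives were 3 other scalings, DESeq2 1.42.0, limma-voom 3.58.1, a robust fit, other filters, leaving out each library, leaving out both libraries with a lost read file, and other gene lengths, of which the principal transcript was added after seeing the data.

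Genes named with values are those called, the 10 with the smallest p-values, the nuclear core subunits, the assembly factors, the 3 highest and 3 lowest per length and both Nduf genes outside the complex, and from other lists each gene called plus Dmac2 and Lyrm2, which were named after their values were seen. For 1 Nduf gene no value of its own is reported here, though it is part of the counts. The members and lists were chosen with earlier results of these data known. Likeness of patterns between genes was not computed, since the libraries fall into clusters by genotype.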

Additional observations from a re-analysis of the deposited data

How the results depend on the processing

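The count of 2 changed Nduf genes (Ndufa10 and Ndufab1) was the same with library sizes alone, upper-quartile or relative log expression factors, DESeq2, limma-voom, a robust fit and a minimum count of 50. It was 1 (Ndufa10) with no filter on low counts and 0 with CREBH-KO 1 alone against WT, a fit that assumes the lone library to vary like the WT libraries. Leaving out 1 library gave 0 without CREBH-KO 2, CREBH-KO 3, WT 2 or WT 3. It gave 2 without WT 1 and without CREBH-KO 1, where the 2 genes were Ndufa10 and Ndufaf6. The count over all genes was 1616, and it was 2456 with no filter, 228 with CREBH-KO 1 alone, and 658 (without WT 2) to 1806 (without WT 1) when 1 library was left out. The adjusted p of Ndufa10 ranged from 0.00205 to 0.354 over its 15 alternatives, and that of Ndufab1 from 0.0215 to 0.421. The median log2 fold change of the Nduf genes was 0.049 with library sizes alone. Their median level moved to 62.6 CPM per kb with the longest and 68.2 with the principal transcript. Signs turned for genes near 0: with library sizes alone and upper-quartile factors to 0.044 and 0.006 for Ndufv2 and to 0.059 and 0.022 for Ndufa4. With CREBH-KO 1 alone, Ndufa4 was at 0.026. Over the fits without 1 library, Ndufa4 ranged from -0.052 to 0.030 and Ndufa4l2 from -0.222 to 0.272. Of 374 values of the 25 named Nduf genes under alternatives, 353 kept direction and side of the threshold, 12 no longer passed, 1 newly passed and 8 turned sign. Most of the 25 were not called, and such a gene keeps its side by not passing again. The 12 were those of the 2 called genes, Ndufa10 (5 of 15 alternatives) and Ndufab1 (7 of 15). For 10 other named genes, 101 of 150 kept both and 49 no longer passed. The causes were not tested. No paired analysis was possible because the labels give no replicate numbers. With 3 libraries per genotype, depth was 33 reads or more in each library for every Nduf gene.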
